A study of Arabidopsis thaliana with 8 samples.

Results

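Transcript levels of wild-type inflorescences were set against those of wild-type seedlings of Arabidopsis thaliana, accession Ler. The 8 Agilent arrays of the study each carried RNA of wild type and of the poly(A) polymerase mutant paps1-1 in 2 colours, and only the wild-type colour of each array was used, which made 8 of 16 channels. In both tissues that channel was Cy3 on replicates 1 and 2 and Cy5 on replicates 3 and 4. The 4 inflorescence channels held main inflorescences of 30-day-old plants on soil, from which open flowers or buds had been removed, in the wording of the labels. Whether closed buds were kept is not clear from that wording. The 4 seedling channels held whole seedlings with roots, 9 days old, on MS plates. All plants of these channels are labelled WT, with no treatment named, and grew at 21 °C in long days with harvest 5 to 7 h after the lights came on. The labels do not say whether plants were pooled. The 4 arrays of a tissue shared a slide. Tissue, age, growth medium and slide therefore cannot be told apart, and the comparison is confined to large differences: a locus was called when it differed by more than 2-fold at an adjusted p under 0.05 (limma's treat test).

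An inflorescence is a shoot whose meristem makes flowers in place of leaves. MADS-domain transcription factors work in combinations there to set the identity of sepals, petals, stamens and carpels, and in the stamen the tapetum, a nourishing cell layer, builds the pollen wall and later leaves its products on the pollen surface as a coat. A seedling has cotyledons, first leaves, a vegetative meristem and a root, which takes up water and ions through root hairs and guards the vascular cylinder with the Casparian strip. These samples are bulk tissue, so fewer cells of a type and less RNA per cell cannot be told apart.

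Of 21225 loci tested, 4652 were called, or 21.9%. Of these, 2197 (10.4% of loci) were higher in inflorescences and 2455 (11.6%) were higher in seedlings. All 4652 had 4 channels of 1 tissue above all 4 of the other and the same direction within each dye. A log2 difference of at least 5 was reached by 244 of the called loci in inflorescences and by 85 in seedlings. In 832 called loci no seedling channel was well above background, and in 419 no inflorescence channel was. The median difference over all loci tested, inflorescences minus seedlings, was 0.05 on the log2 scale. Log2 intensities correlated across loci, which are not independent replicates, with r of 0.9965 to 0.9978 between channels of a tissue and 0.794 to 0.810 between tissues. The median signal over background was 4.71 to 5.51 in inflorescence channels and 2.80 to 4.06 in seedling channels.

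In each tissue 1 channel was most often the highest at loci that were far higher in the other tissue. Among the 244 loci above, seedling replicate 3 was the highest seedling channel at 132, with a median log2 intensity of 6.38 against 6.20 to 6.24 in the other seedling channels. Among the 85 loci, inflorescence replicate 1 was the highest inflorescence channel at 67, with a median of 6.63 against 6.25 to 6.37. The differences of 4 of these loci are given below with and without that channel. At called loci with a log2 difference of at least 3, the same channels were the highest of their tissue at 265 of 660 and at 227 of 475. The source of this signal was not tested.

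Some loci named below were well above background in only part of the channels of the dimmer tissue. In seedlings this was 1 channel of 4 for PGA4, VGD1, ATA27, XTH3, LTP12, TSM1, sks13, GRP20, AP1, UFO, JAL23 and TIP5;1, 2 channels for GRP17, GRP19, SEP2, STK, SYN1, AGO9 and PAB5, and 3 channels for SHP1, AGL8, JAG, SPL4, NIMIN1 and WRKY54. In inflorescences it was 1 channel for FLS5, OSM34, PHT1;1 and EXPA18, and 2 channels for GRP9, MLP34, MLP329, JAL22 and MYB36. Where no channel of the dimmer tissue was well above background, the value is given as a bound in the form "at least". Such folds are on a scale with an offset of 50 added to the signal, which narrows the differences of dim loci.

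The loci highest in inflorescences, among called loci with a symbol, were mostly known for pollen and the tapetum. PGA4 (AT1G02790), a polygalacturonase of the class of enzymes that cut pectin, had log2 normalised intensities of 16.82, 17.29, 16.62 and 16.64 in the 4 inflorescence channels. In seedlings it had 6.13, 6.30, 7.47 and 6.09. The difference was 10.34 ± 0.28 on the log2 scale (moderated SE, n = 4 per tissue, adjusted p = 2.78e-10), and 10.72 without seedling replicate 3. The inflorescence channels lay close together and far above all 4 seedling channels. Only 1 seedling channel was well above background, so both differences rest mostly on seedling values near background.

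GRP17 (AT5G07530), an oleosin-like glycine-rich protein of the pollen coat, had 16.54, 16.79, 16.68 and 16.63 in inflorescences and 6.26, 6.66, 7.64 and 6.20 in seedlings. The log2 difference was 9.97 ± 0.25 (adjusted p = 1.56e-10), and 10.30 without seedling replicate 3. 2 further pollen coat proteins of the same family were among the 12 highest. GRP19 (AT5G07550) had 15.82, 15.99, 15.52 and 15.52 in inflorescences and 6.29, 6.53, 6.85 and 6.24 in seedlings, a log2 difference of 9.23. GRP20 (AT5G07560) had 14.52, 14.62, 14.51 and 14.59 against 6.28, 6.13, 6.52 and 6.19, a log2 difference of 8.28. None of these ranges overlapped.

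VGD1 (AT2G47040), a pectin methylesterase that pollen tubes need for growth, had 15.24, 15.53, 15.26 and 15.37 in inflorescences and 6.16, 6.38, 6.84 and 6.25 in seedlings, a log2 difference of 8.94. ATA27 (AT1G75940), a glucosidase-like protein first cloned from anthers, had 15.03, 15.22, 15.32 and 15.06 against 5.98, 6.32, 6.60 and 6.21, a log2 difference of 8.88. Their ranges did not overlap either. ATA20 (AT3G15400), another anther transcript, was well above background in all 8 channels, with 17.39, 17.69, 17.07 and 17.00 in inflorescences and 8.52, 8.83, 9.13 and 8.56 in seedlings. Its seedling level was thus measured and not only bounded, and the log2 difference was 8.53 ± 0.16.

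The other 5 of the 12 highest had fitted differences of 8.29 to 8.52 on the log2 scale. XTH3 (AT3G25050), of the family that cuts and rejoins xyloglucan in the cell wall, had 14.68, 14.77, 14.80 and 14.77 in inflorescences against 5.98, 6.13, 6.71 and 6.11 in seedlings. LTP12 (AT3G51590), a lipid transfer protein, had 14.71, 14.66, 14.87 and 14.69 against 6.09, 6.09, 6.64 and 6.03. In both, seedling replicate 3 was the highest seedling channel. TSM1 (AT1G67990), a methyltransferase of the tapetum, had 14.84, 14.88, 14.71 and 14.37 against 6.18, 6.02, 6.55 and 6.08. SHT (AT2G19070), which joins spermidine to hydroxycinnamic acids for the pollen coat, had 14.73, 14.75, 14.67 and 14.23 against 6.06, 6.30, 6.61 and 6.03. No seedling channel of SHT was well above background, so its value is a bound, at least 309-fold higher in inflorescences (adjusted p = 9.08e-12). sks13 (AT3G13400), related to multicopper oxidases, had 14.47, 14.72, 14.25 and 14.50 against 6.06, 6.21, 6.63 and 5.90.

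The loci highest in seedlings were of several kinds. GRP9 (AT2G05440), a glycine-rich protein, had 15.38, 15.86, 16.07 and 16.00 in seedlings and 8.51, 6.18, 6.04 and 6.93 in inflorescences. The log2 difference, inflorescences minus seedlings, was −8.91 ± 0.45 (adjusted p = 5.77e-08), and −9.50 without inflorescence replicate 1, which was the highest of its tissue. PYK10 (AT3G09260), a β-glucosidase stored in ER bodies, had 15.65, 15.75, 15.86 and 15.91 in seedlings and 8.29, 6.57, 6.57 and 7.07 in inflorescences. All 8 channels of PYK10 were well above background, and the log2 difference was −8.67 ± 0.32, or −9.09 without inflorescence replicate 1.

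3 lectins of the jacalin family were among the 12 highest in seedlings, and proteins of this family bind PYK10 when cells break. JAL34 (AT3G16460) had 15.51, 15.65, 15.64 and 15.79 in seedlings and 8.55, 7.13, 7.12 and 7.55 in inflorescences, a log2 difference of −8.06. PBP1 (AT3G16420), named for binding PYK10, had 14.24, 14.16, 14.14 and 14.33 against 7.29, 6.63, 6.54 and 6.77, a log2 difference of −7.41. JAL22 (AT2G39310) had 13.30, 13.21, 13.27 and 13.50 against 6.72, 6.08, 6.13 and 6.35, a log2 difference of −7.00. In all 3, inflorescence replicate 1 was the highest of its tissue and still far below the seedling channels.

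MLP34 (AT1G70850), of the major latex protein family, had 15.42, 15.45, 15.37 and 15.57 in seedlings and 7.70, 6.22, 6.25 and 6.61 in inflorescences, a log2 difference of −8.75. MLP329 (AT2G01530), of the same family, had 14.71, 14.65, 14.81 and 14.87 against 7.14, 6.22, 6.17 and 6.32, a log2 difference of −8.30. FLS5 (AT5G63600), of the flavonol synthase family, had 13.68, 13.96, 13.63 and 13.89 against 6.77, 6.08, 5.95 and 6.09, a log2 difference of −7.57. The seedling channels of these 3 loci spanned less than the inflorescence channels.

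XTH31 (AT3G44990), a xyloglucan enzyme as XTH3 is, had 14.36, 14.49, 14.55 and 14.56 in seedlings and 7.58, 7.00, 6.98 and 7.05 in inflorescences, a log2 difference of −7.33. ZIP2 (AT5G59520), a metal ion transporter, had 14.14, 14.28, 14.07 and 14.26 against 7.38, 6.71, 6.68 and 6.73, a log2 difference of −7.31. Members of 1 family thus stood among the 12 highest of both tissues. OSM34 (AT4G11650), an osmotin-like defence protein, had 13.21, 13.10, 13.18 and 13.53 in seedlings and 6.53, 6.06, 6.01 and 6.28 in inflorescences, a log2 difference of −7.04. GSTU8 (AT3G09270), a glutathione transferase, had 13.93, 14.22, 14.20 and 14.18 against 7.60, 6.89, 7.05 and 6.94, a log2 difference of −7.01.

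**Figure D1:**
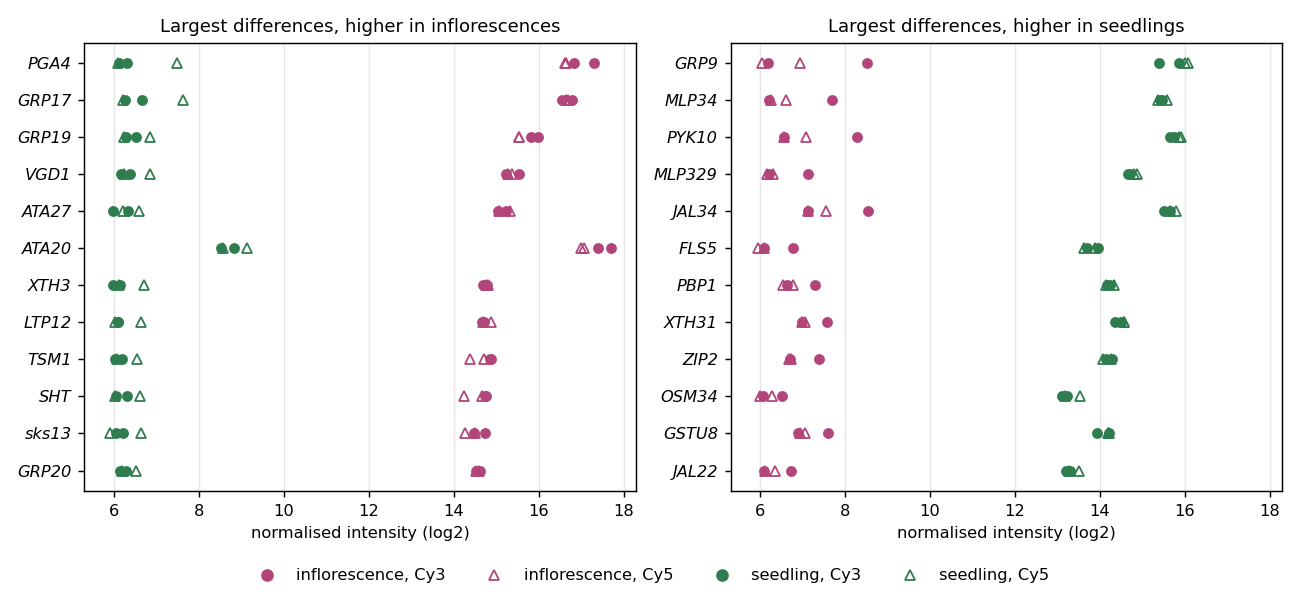
Log2 normalised intensity of the 12 loci with the largest difference in each direction, in the 4 inflorescence and 4 seedling wild-type channels. Circles are Cy3 and open triangles Cy5; the ranges of the tissues do not overlap for any of the 24 loci, and the highest channel of the dim tissue is seedling replicate 3 in the left panel and inflorescence replicate 1 in the right.

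The flower identity genes marked the inflorescence samples. All 23 genes listed were tested, and 18 were higher in inflorescences, none was higher in seedlings and 5 were not called, where 10.4% of all loci were called higher in inflorescences. The median log2 difference of the 23 was 4.00 (3.92 with bounded genes at their bound) against 0.05 for all loci. In 8 of the 23 no seedling channel was well above background, and 8 others were well above background in all 8 channels. All but the latter passed the filter on dim probes through the inflorescences alone. With a filter that required all 8 channels, 6 of those 8 genes were called higher in inflorescences, where 1180 of 18109 loci tested were.

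The B-function genes, which set petals and stamens, had the largest fitted differences of the list. PI (AT5G20240) had 15.31, 15.34, 15.42 and 15.40 in inflorescences and 7.53, 7.54, 7.72 and 7.34 in seedlings, 228-fold higher in inflorescences (log2 7.83 ± 0.07, adjusted p = 3.92e-13). AP3 (AT3G54340), its partner in the protein complex, had 14.75, 14.81, 14.69 and 14.60 against 7.00, 6.80, 7.13 and 6.77, a 221-fold difference. Both were well above background in every seedling channel.

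The A-function gene AP1 (AT1G69120), which sets sepals and the floral fate of the meristem, had 13.90, 13.84, 13.92 and 13.94 in inflorescences and 6.42, 6.30, 6.55 and 6.28 in seedlings. Its log2 difference was 7.51. CAL (AT1G26310), its close relative, was at least 15.1-fold higher in inflorescences. AGL8 (AT5G60910, FRUITFULL), which acts beside AP1 and in the fruit wall, differed by 5.77. AP2 (AT4G36920), also of the A function but no MADS-domain protein, differed by 0.71 and was not called, with 10.71 to 10.80 in inflorescences and 10.01 to 10.09 in seedlings.

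The C-function gene AG (AT4G18960), which sets stamens and carpels, had 13.33, 13.18, 13.37 and 13.07 in inflorescences and 6.68, 6.53, 6.83 and 6.55 in seedlings, a 96.4-fold difference. STK (AT4G09960), an ovule identity gene, differed by 6.21 on the log2 scale. SHP1 (AT3G58780), which acts in the fruit valve margin, differed by 3.90. SHP2 (AT2G42830) was at least 16.6-fold higher in inflorescences on its brightest probe, while a second kept probe of the locus differed by 2.60 on the log2 scale. All 4 were called.

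The SEPALLATA genes are cofactors for every floral whorl. SEP2 (AT3G02310) differed by 7.12 on the log2 scale, SEP1 (AT5G15800) by 5.91 and SEP3 (AT1G24260) by 3.82, and SEP4 (AT2G03710) was at least 20.7-fold higher in inflorescences. SEP3 was unlike the others on the seedling side, with 11.39, 11.00, 11.16 and 11.23 in seedlings against 14.97, 15.05, 15.05 and 14.98 in inflorescences. Every seedling channel of SEP3 and of SEP1 was well above background, but those of SEP1 lay at 6.46 to 6.69. AGL6 (AT2G45650), a MADS-domain gene near the SEPALLATA group, differed by 5.69.

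Upstream and organ-patterning regulators follow, and those given as bounds cannot be ranked by size. LFY (AT5G61850), which gives the meristem its floral fate, was at least 3.84-fold higher in inflorescences, with 8.03 to 8.33 there, and in no seedling channel well above background. SUP (AT3G23130), which bounds the stamen whorl, was at least 5.41-fold higher, and CRC (AT1G69180), a gene of carpels and nectaries, at least 8.68-fold higher. JAG (AT1G68480), a growth regulator of lateral organs, was 2.46-fold higher (adjusted p = 0.000161). Its call was lost with each channel scaled to its 75th percentile. UFO (AT1G30950) at 0.68 and SPT (AT4G36930) at 1.14 were not called, nor were KNU (AT5G14010), at least 1.48-fold higher, and TT16 (AT5G23260), at least 2.12-fold higher. SPT passed without inflorescence replicate 1 (adjusted p = 0.0493) and TT16 without inflorescence replicate 3 (adjusted p = 0.0453). The channels of these 4 did not overlap between tissues, but with all 8 channels their size was not shown to pass 2-fold.

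**Figure D2:**
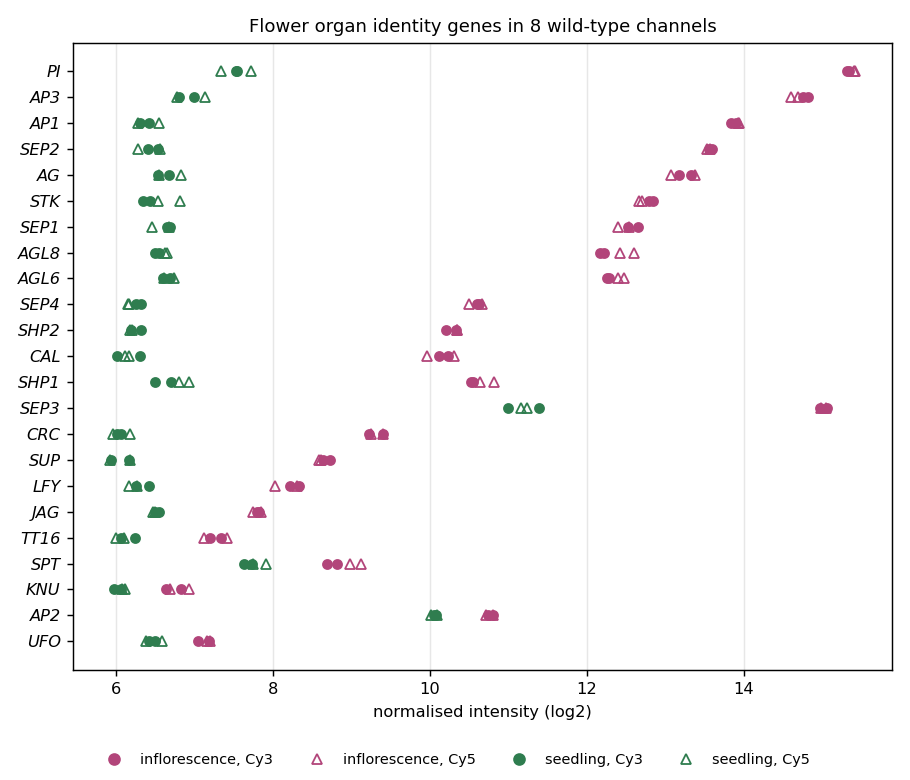
Log2 normalised intensity of the 23 flower organ identity genes in the 8 wild-type channels, ordered by the difference between tissues. PI and AP3 stand at the top with differences of 7.83 and 7.79, SEP3 has seedling channels between 11.00 and 11.39, and AP2 at 0.71 and UFO at 0.68 stand at the bottom.

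Flowering-time regulators were found on both sides. Of 22 listed genes 21 were tested, and 8 were higher in inflorescences (10.4% of all loci), 6 were higher in seedlings (11.6% of all loci) and 7 were not called. The SPL factors, targets of miR156 that promote flowering and adult growth, were higher in inflorescences: SPL5 (AT3G15270) by 5.84 on the log2 scale, SPL3 (AT2G33810) by 5.67, SPL4 (AT1G53160) by 5.36, SPL9 (AT2G42200) by 3.43 and SPL15 (AT3G57920) by 3.12. SPL3 had 14.56, 14.45, 14.27 and 14.48 in inflorescences and 8.77, 8.77, 8.73 and 8.81 in seedlings. AGL24 (AT4G24540), a MADS-domain promoter of flowering, differed by 2.49. FT (AT1G65480), the mobile flowering signal, was at least 4.89-fold higher in inflorescences, and TSF (AT4G20370), its close relative, did not pass the filter.

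The AP2-like repressors of flowering, targets of miR172, were higher in seedlings. RAP2.7 (AT2G28550, TOE1) had 11.92, 12.03, 11.95 and 12.05 in seedlings and 7.48, 7.47, 7.44 and 7.65 in inflorescences, a log2 difference of −4.48 ± 0.06. SNZ (AT2G39250) differed by −4.37, SMZ (AT3G54990) by −2.03 and TOE2 (AT5G60120) by −1.96. SVP (AT2G22540), a MADS-domain repressor, differed by −3.80, with 12.77 to 13.07 in seedlings and 8.98 to 9.32 in inflorescences. TEM1 (AT1G25560), which represses FT, differed by −1.42. AGL20 (AT2G45660, SOC1) and FLC (AT5G10140) were not called, at 0.07 and −0.61, and the channels of AGL20 overlapped between tissues.

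Among 26 shoot meristem and boundary genes 25 were tested, all of them well above background in all 8 channels, and 10 were higher in inflorescences and 1 in seedlings (10.4% and 11.6% of all loci), with a median of 0.94. WUS (AT2G17950), which keeps stem cells in the shoot tip, had 10.76, 10.79, 10.86 and 10.72 in inflorescences and 6.76, 6.86, 6.50 and 6.71 in seedlings, a 16.9-fold difference. STM (AT1G62360), which keeps meristem cells undifferentiated, differed by 3.57 on the log2 scale. The boundary genes MYB117 (AT1G26780, LOF1) and CUC2 (AT5G53950) differed by 2.59 and 2.12, and RPL (AT5G02030), a homeodomain partner of STM, by 2.37. BOP2 (AT2G41370), active at the base of leaves, was the member higher in seedlings, at −1.21. CLV1 (AT1G75820), the receptor that limits WUS, was not called at −0.71, and CLV3 (AT2G27250), its ligand, did not pass the filter.

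Genes of the tapetum and the pollen wall formed the list with the highest median, 4.92 (4.81 with bounded genes at their bound). Of 23 tested, 21 were higher in inflorescences (10.4% of all loci) and 1 in seedlings, and 14 were in no seedling channel well above background. Those 14 passed the filter on dim probes through the inflorescences alone. Only 8 of the 23 were well above background in all 8 channels. With a filter that required this, 7 were called higher in inflorescences, where 1180 of 18109 loci tested were. LAP5 (AT4G34850), a polyketide synthase of the sporopollenin pathway, had 14.99, 15.08, 15.02 and 14.49 in inflorescences and 6.74, 6.46, 6.89 and 6.45 in seedlings, a 307-fold difference. Its pathway partners were ACOS5 (AT1G62940), an acyl-CoA synthetase, at least 234-fold higher, CYP703A2 (AT1G01280), a fatty acid hydroxylase, at least 110-fold higher, and MS2 (AT3G11980), a fatty acyl reductase, at least 84.2-fold higher. QRT3 (AT4G20050), a polygalacturonase that frees pollen grains from the tetrad, differed by 6.34 on the log2 scale.

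Among the regulators of the tapetum, most were higher in inflorescences. SPL (AT4G27330, SPOROCYTELESS), which starts the germ cell lineage, was at least 28.1-fold higher in inflorescences, and AMS (AT2G16910), a bHLH factor of the tapetum, at least 61.9-fold higher. TPD1 (AT4G24972), the ligand that specifies the tapetum, went the other way. It had 11.85, 11.88, 11.93 and 11.54 in seedlings and 9.41, 9.14, 9.15 and 9.06 in inflorescences, a log2 difference of −2.61 ± 0.09 (adjusted p = 3.31e-08).

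Of 20 genes of the pollen coat and mature pollen, 18 were higher in inflorescences (10.4% of all loci) and 2 were not called. The median was 4.67 (4.61 with bounded genes at their bound). In no seedling channel well above background were 12 of them, which passed the filter on dim probes through the inflorescences alone. Only 4 of the 20 were well above background in all 8 channels. With a filter that required this, 3 were called higher in inflorescences, where 1180 of 18109 loci tested were. Besides the GRP genes and VGD1, EXL4 (AT1G75910) and EXL6 (AT1G75930), lipases of the pollen coat, were at least 228-fold and at least 168-fold higher. AGP6 (AT5G14380), an arabinogalactan protein of pollen, differed by 5.81 on the log2 scale. AGL65 (AT1G18750), a MADS-domain factor of pollen, was measured in all 8 channels and was not called at 0.50. These levels were measured in samples from which, per the labels, open flowers or buds had been removed.

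Of the meiosis and cell division genes tested, 1 was called. Of 18 meiosis genes tested of 20 listed, 1 was higher in inflorescences and none in seedlings (10.4% and 11.6% of all loci), with a median of 0.43. This was SYN1 (AT5G05490), a cohesin subunit of meiotic chromosomes, at 1.62, and 17 were not called. The call of SYN1 was lost with each channel scaled to its 75th percentile. DMC1 (AT3G22880), the recombinase of meiotic crossing over, had 11.37, 11.00, 11.53 and 11.48 in inflorescences and 10.86, 10.79, 10.78 and 10.86 in the seedling channels. ASY1 (AT1G67370), a protein of the chromosome axis, had 6.49 to 6.78 and 6.51 to 6.65. None of 26 cell cycle and replication genes was called, where 21.9% of all loci were, although 25 of the 26 had a difference above 0, with a median of 0.48. MCM5 (AT2G07690), of the replication helicase, differed by 0.92, CYCB1;1 (AT4G37490), a mitotic cyclin, by 0.46, and ICK1 (AT2G23430), a CDK inhibitor, by −0.83.

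Root genes marked the seedling samples. Of 24 listed, 23 were tested, and 16 were higher in seedlings, where 11.6% of all loci were, and 1 was higher in inflorescences. The median was −1.83 (−1.75 with bounded genes at their bound), and 8 were in no inflorescence channel well above background. Those 8 passed the filter on dim probes through the seedlings alone, and 11 of the 23 were well above background in all 8 channels. The count higher in seedlings ran from 6 to 18 across the settings. It moved by over 1.5 times with a filter that required all 8 channels and with a plain test with at least 4-fold. PHT1;1 (AT5G43350), a phosphate transporter of the root surface, had 12.86, 13.15, 12.87 and 13.17 in seedlings and 6.47, 6.10, 6.22 and 6.27 in inflorescences. The log2 difference was −6.75 ± 0.10. CASP1 (AT2G36100), which builds the Casparian strip, had 11.23, 11.41, 11.29 and 11.54 in seedlings and was at least 35.3-fold higher there. MYB36 (AT5G57620), which switches on CASP1, differed by −2.94.

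The root list also held genes of root hair growth. EXPA18 (AT1G62980), an expansin of hair growth, differed by −2.93, EXPA7 (AT1G12560), of the same family, was at least 6.22-fold higher in seedlings and RSL4 (AT1G27740), the bHLH factor of hair length, at least 3.46-fold. The iron uptake genes IRT1 (AT4G19690) and FRO2 (AT1G01580) varied among the seedling channels. IRT1 had 9.35, 10.95, 10.30 and 11.07 in seedlings against 8.60 to 8.85 in inflorescences and was not called, and FRO2 had 8.10, 10.03, 9.10 and 10.25 against 7.92 to 8.38. In both, seedling replicate 1 was the lowest seedling channel, and without it both were called higher in seedlings, IRT1 at −2.09 and FRO2 at −1.67. SHV2 (AT5G49270), a COBRA-like protein of root hairs, was the member higher in inflorescences, at 1.47, and SHR (AT4G37650), a root patterning factor, was not called at 0.74.

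The nuclear photosynthesis genes depended on the scaling. With quantile normalization across the 8 channels, 17 of 55 were higher in seedlings (11.6% of all loci) and 1 in inflorescences, with a median of −0.58. With each channel scaled to its 75th percentile, 45 of 55 were higher in seedlings (13.9% of all loci, and 8.48% higher in inflorescences), the median was −1.65, and the median over all loci moved from 0.05 to −0.09. All 55 were well above background in every channel. LHB1B1 (AT2G34430), an antenna protein of photosystem II, had 17.59, 17.36, 17.63 and 17.69 in seedlings and 14.39, 14.68, 14.35 and 14.91 in inflorescences, a log2 difference of −2.99. LHCB2.2 (AT2G05070) and LHCB2.3 (AT3G27690), antenna proteins too, differed by −1.83 and −1.82, PSAH2 (AT1G52230), a subunit of photosystem I, by −1.58, and PRK (AT1G32060), of the Calvin cycle, by −1.53.

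RBCS1A (AT1G67090), a small subunit of Rubisco, had 17.51 to 17.63 in inflorescences and 17.29 to 17.51 in seedlings with quantile normalization, at 0.17, and its difference was −1.07 with the percentile scaling. LHCB4.3 (AT2G40100) went against the list under both scalings. It had 15.34, 15.25, 15.41 and 15.34 in inflorescences and 12.80, 12.76, 13.10 and 13.01 in seedlings, a log2 difference of 2.42, and 2.03 with the percentile scaling. Its relative LHCB4.2 differed by −1.47.

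**Figure D3:**
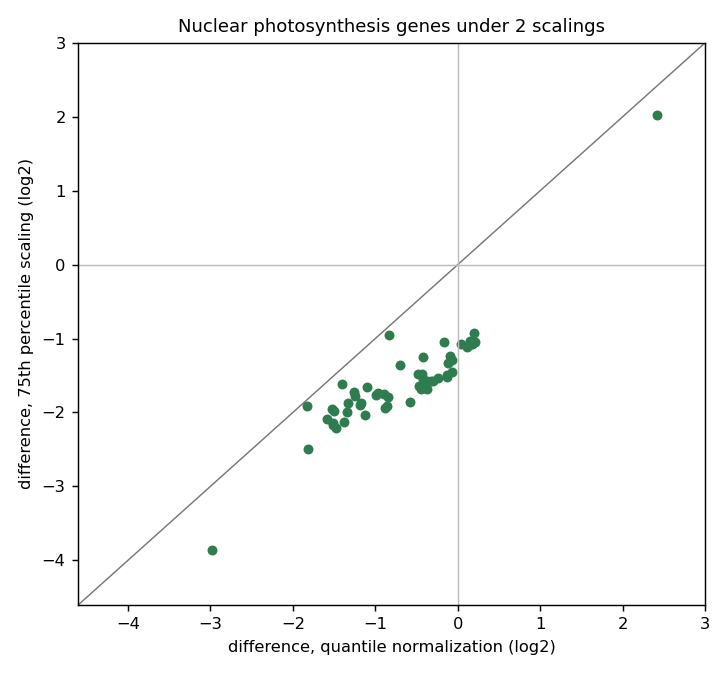
Difference between inflorescences and seedlings of the 55 nuclear photosynthesis genes, on the log2 scale, with quantile normalization on the horizontal axis and with scaling to the 75th percentile on the vertical axis; the diagonal marks equal values. All points lie below the diagonal, with a median of −0.58 on the horizontal and −1.65 on the vertical axis, and LHCB4.3 stands alone at the upper right.

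Defence metabolism separated into parts. Aliphatic glucosinolates are sulphur compounds made from methionine, which myrosinases break down when tissue is wounded. Of 17 genes of their synthesis, 9 were higher in seedlings (11.6% of all loci) and none in inflorescences, with a median of −1.28. The chain-elongation step stood out: IMS2 (AT5G23020, MAM3) had 12.78, 12.60, 12.70 and 12.74 in seedlings and 8.06, 7.59, 7.27 and 7.82 in inflorescences, a 32.5-fold difference. BCAT4 (AT3G19710), which starts elongation, differed by −4.22 and MAM1 (AT5G23010) by −3.20. CYP79F1 (AT1G16410), the first enzyme of the core pathway, differed by −2.81, and CYP79F2 (AT1G16400) was at least 5.14-fold higher in seedlings. The neighbouring core enzyme CYP83A1 (AT4G13770) overlapped between tissues at 0.10, and the regulators MYB28 (AT5G61420) and MYB29 (AT5G07690) were not called at −1.06 and −1.08. A further MYB gene of the list, MYB76 (AT5G07700), was called and was at least 3.31-fold higher in seedlings.

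Myrosinase, ER body and storage genes showed opposite directions within the list of 10, with 7 higher in inflorescences, 2 in seedlings (10.4% and 11.6% of all loci) and 1 not called. NAI2 (AT3G15950), which forms ER bodies, went with PYK10, at 12.91, 13.10, 13.15 and 13.15 in seedlings and 7.02, 6.80, 6.94 and 6.89 in inflorescences, a 71.9-fold difference. BGLU18 (AT1G52400), a β-glucosidase of inducible ER bodies, was 14.6-fold higher in inflorescences. JAL23 (AT2G39330), the jacalin lectin whose relative JAL22 was high in seedlings, had 11.48, 11.89, 11.27 and 11.77 in inflorescences and 6.61, 6.32, 6.63 and 6.41 in seedlings, a log2 difference of 5.11. The myrosinase-binding protein MBP1 (AT1G52040) differed by 3.77.

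VSP1 (AT5G24780), a vegetative storage protein with phosphatase activity, had 15.29, 15.71, 15.23 and 15.67 in inflorescences and 7.39, 7.17, 7.97 and 7.17 in seedlings, a 265-fold difference, and VSP2 (AT5G24770) differed by 5.44 on the log2 scale. The myrosinase TGG1 (AT5G26000), at 0.47, was the only member of the list that was not called.

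Jasmonate genes were also found on both sides. Of 18 tested of 19 listed, 11 were higher in inflorescences and 2 in seedlings (10.4% and 11.6% of all loci), with a median of 1.53. The stamen regulators MYB21 (AT3G27810), MYB24 (AT5G40350) and MYB57 (AT3G01530), which act downstream of jasmonate, were at least 118-fold, at least 22.1-fold and at least 9.80-fold higher in inflorescences. A second kept probe of MYB21 differed by 4.25 on the log2 scale. JMT (AT1G19640), which makes methyl jasmonate, differed by 5.74, and the thionin gene THI2.1 (AT1G72260) was at least 102-fold higher. The synthesis enzymes LOX2 (AT3G45140) and OPR3 (AT2G06050) were higher in inflorescences, by 2.31 and 1.53.

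Other genes of the synthesis were higher in seedlings. AOS (AT5G42650), allene oxide synthase, had 13.23, 13.54, 13.63 and 13.68 in seedlings and 11.07, 11.10, 11.10 and 11.09 in inflorescences, a log2 difference of −2.43. AOC2 (AT3G25770), 1 of 4 allene oxide cyclases, was at least 25.2-fold higher in seedlings, while AOC4 was higher in inflorescences at 1.54.

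In the flavonoid pathway, 13 of 14 genes were tested, and 7 were higher in inflorescences and 2 in seedlings (10.4% and 11.6% of all loci). The early enzymes were higher in inflorescences: FLS1 (AT5G08640), flavonol synthase, with 15.77, 15.43, 15.48 and 15.29 against 10.80, 10.86, 10.70 and 10.79, a 26.1-fold difference, F3H (AT3G51240) by 3.47 on the log2 scale, TT7 (AT5G07990) by 3.43 and TT4 (AT5G13930), chalcone synthase, by 3.37. MYB111 (AT5G49330) and MYB12 (AT2G47460), which switch on the flavonol branch, differed by 3.20 and 1.82. Of the anthocyanin branch, the enzymes DFR (AT5G42800) at −2.12 and LDOX (AT4G22880) at −1.40 were higher in seedlings. Its transferase GSTF12 at 0.13 and its activators TT8 at −0.56 and PAP1 (AT1G56650) at −1.17 (adjusted p = 0.0852) were not called. PAP1 passed without inflorescence replicate 2 (adjusted p = 0.0262) or seedling replicate 2 (adjusted p = 0.0455).

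The cuticle and wax list had 11 of 16 genes higher in inflorescences and 1 in seedlings (10.4% and 11.6% of all loci), with a median of 2.69. CYP96A15 (AT1G57750), the alkane hydroxylase of stem wax, had 13.58, 13.58, 13.72 and 13.75 in inflorescences and 6.73, 6.90, 7.13 and 6.97 in seedlings, a 106-fold difference. SHN1 (AT1G15360), an activator of wax and cutin genes, was at least 46.5-fold higher. CYP77A6 (AT3G10570) and GPAT6 (AT2G38110), which make flower cutin, differed by 5.01 and 3.95, and CER4 (AT4G33790), which makes wax alcohols, by 4.45. ABCG12 (AT1G51500), a wax exporter, was the member higher in seedlings, at −1.49.

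Of 19 genes tested around EDS1 and salicylic acid, 5 were higher in inflorescences and 1 in seedlings (10.4% and 11.6% of all loci). The other 13 were not called, and the list median was 0.07. PBS3 (AT5G13320), an enzyme of salicylic acid synthesis, and NIMIN1 (AT1G02450), which binds NPR1, both differed by 3.80. EDS16 (AT1G74710) at −0.94 and CBP60G (AT5G26920) at −0.19 were not called. The channels of EDS16 did not overlap between tissues, and a second kept probe differed by −0.74, while those of CBP60G overlapped. WRKY70 (AT3G56400) and WRKY54 (AT2G40750), factors of salicylic acid signalling, differed by 2.72 and 1.81, while EDS1 (AT3G48090) and PAD4 (AT3G52430), which act as a pair, differed by 0.07 and −0.10. PCC1 (AT3G22231), a small defence protein, varied within both tissues, with 8.22, 8.24, 8.93 and 9.73 in inflorescences and 6.53, 6.66, 8.62 and 6.67 in the seedling channels. It was not called, and was higher in inflorescences at 2.05 without seedling replicate 3. BGL2 (AT3G57260), a defence glucanase, had 8.01, 7.91, 8.72 and 9.53 against 7.21, 7.15, 7.47 and 6.84 and was not called, and inflorescence replicate 4 was the highest channel of both genes. PR5 (AT1G75040) was higher in inflorescences at 1.46, and inflorescence replicate 4 was its highest channel too. NPR1 (AT1G64280), the salicylic acid receptor, was higher in seedlings at −1.17 (adjusted p = 0.0399), a call lost when any of 6 of the 8 channels was left out.

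Aquaporins, which let water or small solutes through membranes, were spread on both sides. Of 33 tested of 34 listed, 6 were higher in inflorescences and 7 in seedlings (10.4% and 11.6% of all loci). TIP5;1 (AT3G47440) and TIP1;3 (AT4G01470), pollen members that stand on the pollen list as well, differed by 5.31 and were at least 22.7-fold higher in inflorescences, and NIP4;1 (AT5G37810) was at least 15.6-fold higher. NIP7;1 (AT3G06100), a boric acid channel of anthers, differed by 3.41. TIP2;2 (AT4G17340), a vacuolar member, had 13.85, 13.89, 13.82 and 13.93 in seedlings and 8.74, 8.71, 8.49 and 8.35 in inflorescences, a 39.5-fold difference, and TIP2;3 (AT5G47450) differed by −3.70. TIP3;1 (AT1G73190), a seed member, was at least 20.3-fold higher in seedlings, and PIP2B (AT2G37170), of the plasma membrane, differed by −2.70.

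Of 14 clock genes 2 were called, both higher in inflorescences (10.4% of all loci): LHY (AT1G01060), a morning factor, at 1.69, a 3.23-fold difference, and RVE8 (AT3G09600) at 1.19 (adjusted p = 0.0398). The call of RVE8 ended with the replicate number as a block (adjusted p = 0.0592) and when any of 5 of the 8 channels was left out. LHY was not called with Cy5 alone (adjusted p = 0.121). CCA1 (AT2G46830), the partner of LHY, overlapped between tissues at 0.05. ELF4 (AT2G40080) and PRR5 (AT5G24470), evening genes, were not called at −1.34 and −1.19, and inflorescence replicate 4 was their highest inflorescence channel and the lowest of LHY. Without that channel both were called higher in seedlings, ELF4 at −1.56 and PRR5 at −1.50, as they were with Cy3 alone.

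**Figure D4:**
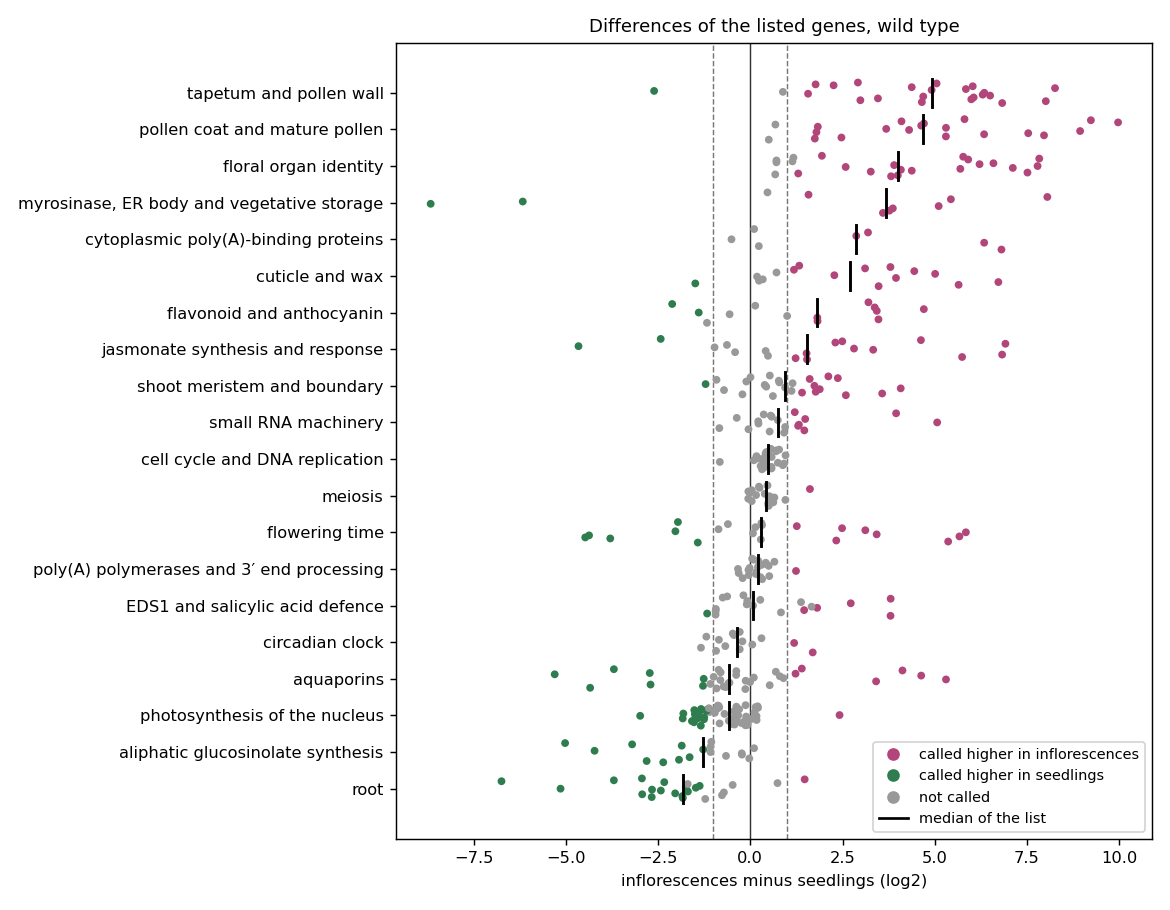
Difference between inflorescences and seedlings on the log2 scale for the tested members of 20 gene lists, 1 point per locus, coloured by call, with the median of each list as a bar and dashed lines at 2-fold. The tapetum list has the highest median (4.92) and the root list the lowest (−1.83), and no cell cycle gene is called.

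The poly(A) polymerases, the subject of the series, had close levels in both wild-type tissues, except PAPS3. PAPS1 (AT1G17980), the enzyme altered in paps1-1, had 11.17, 11.21, 11.18 and 11.13 in inflorescences and 11.44, 11.37, 11.36 and 11.36 in seedlings, a log2 difference of −0.21 ± 0.04. PAPS2 (AT2G25850) had 10.70, 10.94, 10.95 and 11.22 against 11.14, 11.32, 11.28 and 11.33, at −0.32, and nPAP (AT4G32850, PAPS4) overlapped between tissues at −0.02. PAPS3 (AT3G06560), a cytoplasmic enzyme, had 7.21, 7.43, 7.27 and 7.32 in inflorescences and was in no seedling channel well above background. It was at least 2.14-fold higher in inflorescences (adjusted p = 0.00545). Of 21 genes for poly(A) polymerases and 3′ end processing, PAPS3 alone was called, where 21.9% of all loci were called in either direction. Its call was lost with scaling to the 75th percentile and with the Cy5 channels alone.

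The cytoplasmic poly(A)-binding proteins, which coat the finished tail, fell into separate sets. PAB3 (AT1G22760) had 13.07, 13.42, 13.05 and 13.02 in inflorescences and was at least 110-fold higher there, and PAB5 (AT1G71770) had 12.63, 13.09, 12.76 and 12.62 against 6.53, 6.21, 6.55 and 6.44, a log2 difference of 6.34. PAB6 (AT3G16380) was at least 8.72-fold higher and PAB7 (AT2G36660) differed by 2.87. PAB2 (AT4G34110), PAB8 (AT1G49760) and PAB4 (AT2G23350) were not called, at 0.10, 0.23 and −0.51. PAB1 (AT1G34140) did not pass the filter.

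Small RNA genes had 7 of 19 tested members higher in inflorescences (10.4% of all loci) and none in seedlings. AGO5 (AT2G27880), an Argonaute of germline tissue, had 11.20, 11.31, 11.41 and 11.36 in inflorescences and was at least 32.5-fold higher there, and AGO9 (AT5G21150), which acts in the ovule, had 10.27, 10.49, 10.49 and 10.34 against 6.44, 6.44, 6.37 and 6.53, a log2 difference of 3.95. DCL3 (AT3G43920), RDR1 (AT1G14790) and AGO4 (AT2G27040), of which DCL3 and AGO4 act in RNA-directed DNA methylation, differed by 1.49, 1.46 and 1.32. AGO1 (AT1G48410), the main microRNA effector, was not called at 0.94, and AGO3 (AT1G31290) was not called at −0.84.

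**Figure D5:**
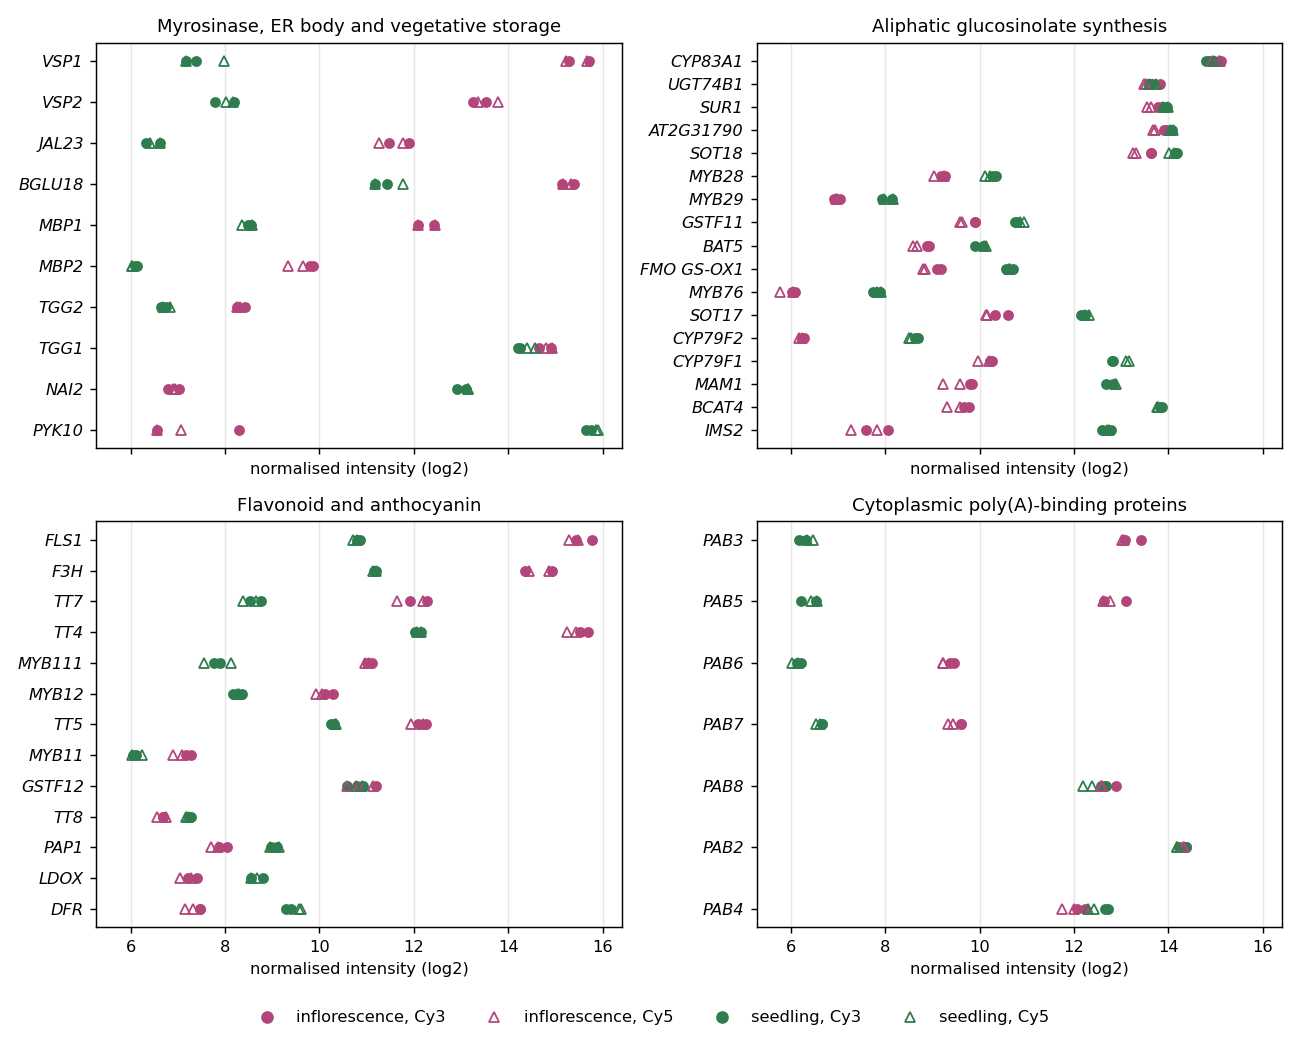
Log2 normalised intensity in the 8 wild-type channels for 4 gene lists. Inflorescence and seedling channels are in different colours, with Cy3 as circles and Cy5 as open triangles. Called members stood on both sides in the myrosinase and flavonoid lists. In the glucosinolate list they stood only on the seedling side, and in the poly(A)-binding list only on the inflorescence side. PYK10 and NAI2 are high in seedlings where VSP1 and JAL23 are high in inflorescences, FLS1 and F3H stand opposite DFR and LDOX, and PAB2, PAB4 and PAB8 have close levels in both tissues.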

How the data were processed

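The authors' scanner files hold, per the file headers (Feature Extraction 10.7.3.1), per spot the median intensity and that of the local background in both colours, without normalization, beside a processed intensity corrected by that software. The submitters' processing notes name limma without a version. The deposited value table of mutant over wild-type ratios was not used here, and the labelling primer is not given in the sources used here.

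Wild-type signals of the 8 arrays (39102 spots, 1417 of them controls) were background corrected by normexp with an offset of 50, and log2 values were quantile normalized across the 8 wild-type channels. The tools were R 4.3.3, limma 3.58.1 and data.table, version 1.17.8. Control and outlier spots were left out, and no spot was saturated. A probe was kept if well above background in all 4 channels of a tissue and measured in at least 6 channels, and each locus was represented by its brightest kept probe. This left 21225 of 25665 loci. The table of locus names held 25449 of these 25665. Gene positions are not given, since the files name no genome build.

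The model had terms for tissue and dye (5 residual degrees of freedom, 4.89 added by empirical Bayes moderation). limma's treat tested differences against 2-fold, 2-sided, with Benjamini-Hochberg adjustment over all loci, and a locus was called at an adjusted p under 0.05. On simulated data with 200 of 21225 loci changed, the fit called 100% of 4-fold changes and 0% of 1.5-fold changes. The labels call the 4 samples of a tissue biological replicates. The number of arrays limits the precision. Alternatives were other background corrections, scalings, dim-probe filters, probe rules, dye terms and tests, and leaving out each channel.

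Deviations of same-numbered channels from their tissue means correlated with r of 0.127 to 0.174, but these channels share a dye, and after removal of dye means r was 0.0199 to 0.067. The replicate number was used as a block in 1 alternative.

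Members, lists and tests were chosen with earlier results of these data known, and 20 lists (430 loci) are described by counts and medians with no test of a list. Named genes were the 12 highest and 12 lowest differences among called loci with a symbol and separate channels, all flower identity genes and poly(A) polymerases, and per list up to 5 called members in each direction and the member farthest against the list. Other genes named were chosen after their values were seen: FT, AGL24, TEM1, AGL20, FLC, TSF, CLV1, CLV3, SPL, AMS, AGP6, DMC1, ASY1, MCM5, CYCB1;1, EXPA7, RSL4, IRT1, FRO2, SHR, RBCS1A, LHCB4.2, MYB28, MYB29, MYB76, TGG1, LOX2, OPR3, AOC4, MYB12, PAP1, GSTF12, TT8, EDS1, PAD4, EDS16, CBP60G, PCC1, BGL2, CCA1, ELF4, PRR5, PAB1, PAB2, PAB8 and AGO1.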

Additional observations from a re-analysis of the deposited data

Results flagged for a closer look

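Among 211 named loci, 422 groups of 4 channels were examined, and in 26 of them 1 channel lay far from the other 3 by Dixon's ratio, where chance gives about 1 in 20. The values are log2 normalised intensities.

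In inflorescence replicate 1, MLP329 had 7.14 against 6.17 to 6.32, XTH31 had 7.58 against 6.98 to 7.05, ZIP2 had 7.38 against 6.68 to 6.72, EXPA7 had 6.29 against 6.06 to 6.09 and EDS16 had 8.85 against 8.73 to 8.75 in the other inflorescence channels. In inflorescence replicate 2, SHP2 had 10.20 against 10.33 to 10.35 and PAB3 had 13.42 against 13.02 to 13.07 in the other inflorescence channels. In inflorescence replicate 3, EXPA18 had 5.65 against 6.11 to 6.20 and SHN1 had 11.90 against 11.72 to 11.73 in the other inflorescence channels. In inflorescence replicate 4, SHT had 14.23 against 14.67 to 14.75, LAP5 had 14.49 against 14.99 to 15.08 and NIP7;1 had 10.23 against 10.81 to 10.92 in the other inflorescence channels. In seedling replicate 1, GSTU8 had 13.93 against 14.18 to 14.22, SHP2 had 6.31 against 6.18 to 6.20, RPL had 10.02 against 10.44 to 10.49, PCNA1 had 11.36 against 11.16 to 11.19 and RBCS1B had 16.38 against 16.82 to 16.89 in the other seedling channels. In seedling replicate 3, PGA4 had 7.47 against 6.09 to 6.30, LTP12 had 6.64 against 6.03 to 6.09, PBS3 had 7.82 against 7.42 to 7.46, WRKY54 had 6.46 against 6.63 to 6.66, THI2.1 had 6.30 against 5.98 to 6.02 and PCC1 had 8.62 against 6.53 to 6.67 in the other seedling channels. In seedling replicate 4, MIF2 had 6.75 against 6.96 to 6.99, SNZ had 12.02 against 12.20 and CBP60G had 6.68 against 6.97 to 7.02 in the other seedling channels. 

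These flags stand beside a finding at loci with a log2 difference of at least 5. At most of these loci, seedling replicate 3 or inflorescence replicate 1 was the highest channel of the dim tissue. The cause was not tested.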

How the results depend on the processing

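Against the main counts of 2197 loci higher in inflorescences and 2455 higher in seedlings, the settings that moved a count by over 1.5 times were a filter that required all 8 channels well above background, which tests fewer loci (18109) and gave 1180 higher in inflorescences, and a plain test with at least 4-fold, which asks for a larger difference and gave 1196 and 1094. Leaving out 1 channel gave 2160 to 2188 higher in inflorescences and 2366 to 2420 higher in seedlings. With the replicate block, 4648 loci were called, and of the named loci only RVE8 lost its call. With scaling to the 75th percentile 4748 loci were called, and 37.9% of these were higher in inflorescences against 47.2% in the main setting; with the strict filter the share was 39.0%. Under this scaling the flowering-time median moved from 0.28 to −0.15. Without the offset, 5763 loci were called and the median of the flower identity genes was 5.74, and with the software's processed signal 6482 and 7.15. The 2 settings of a single dye, chosen after the data were seen, called 4300 (Cy3) and 4283 (Cy5). Of 211 named loci none reversed under any setting that tested it, and the strict filter tested 138 of them. PAPS3 lost its call under the percentile scaling, with Cy5 alone and under the 4-fold test, and PR5 with Cy3 alone and under the 4-fold test. SPT, TT16 and KNU gained a call without the offset. Depth in the sense of signal over background limits the values of loci dim in 1 tissue, which are bounds.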

Other observations

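Other gene families were chosen after their values were seen and were taken by the symbol of the reference table. Their called members lay mostly on the side of 1 tissue. Of 13 SAUR loci tested, small auxin-induced genes, 12 were higher in seedlings and none in inflorescences, from −3.58 (SAUR15) to −0.99 (SAUR68) on the log2 scale. Of 24 GSTU loci, the tau class of glutathione transferases, 16 were higher in seedlings and none in inflorescences, and of 12 GSTF loci, the phi class, 7 were higher in seedlings and none in inflorescences. Of 27 XTH loci 14 were higher in seedlings and 3 in inflorescences, with XTH31 at −7.33 and XTH3 at 8.52 as the ends. Of 57 WRKY loci 18 were higher in seedlings and 4 in inflorescences, and of 25 CRK loci, receptor-like kinases, 10 and none. Most loci of these 2 families, 35 WRKY and 15 CRK loci, were not called. Over all loci tested the shares were 11.6% and 10.4%.

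Some other families had more members higher in inflorescences. Of 19 CHX loci, cation and proton exchangers, 13 were higher in inflorescences and 2 in seedlings, from −3.46 (CHX17) to 4.81 (CHX23). Of 14 SWEET loci, sugar exporters, 9 were higher in inflorescences and 3 in seedlings, with SWEET10 at 6.70. Of 18 RALFL loci, small signal peptides, 7 were higher in inflorescences and 1 in seedlings, with RALFL8 at 6.69. No locus was called by limma's test in the families of 22 RPS loci of the ribosome, 30 VPS loci of vesicle sorting, 28 UBP loci of ubiquitin removal, 15 NRPB loci of RNA polymerase II or 9 TUB loci of tubulin.

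The mutant channels of the same arrays, which are other samples on the same slides, gave 4208 calls by the same test of inflorescences against seedlings over 20884 loci measured in both genotypes, against 4639 in wild type. Both called 3757 loci in the same direction, which is 81.0% of the wild-type calls and 89.3% of the mutant calls, and none in opposite directions. Mutant seedlings were 11 days old.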
